A study of Mus musculus with 44 samples.

Results

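The 32 genes described here are transcripts that astrocytes of the mouse brain express strongly. They were given as a list of symbols and matched to Ensembl identifiers with GENCODE release M21. All 32 matched 1 identifier each, out of 50714 identifiers counted in every library, and all 32 passed the filter on low counts in the fits that hold all 4 fractions. The list sets 4 genes that it names perisynaptic process genes (Slc1a2, Slc1a3, Glul and Aqp4, called perisynaptic below) against the other 28. The name is taken from the list, and Aqp4 encodes the water channel of the end feet on vessels.

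Astrocytes take up glutamate and potassium released at synapses, turn glutamate into glutamine, couple to each other through gap junctions and wrap vessels with end feet rich in water channels. Much of this happens in fine processes far from the nucleus, and some astrocyte mRNAs are carried there and translated locally. A synaptosome fraction, made by breaking tissue so that nerve endings pinch off and reseal, also keeps pieces of those processes.

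RNA was taken from hand-dissected forebrain (dorsal cortex together with hippocampus) at postnatal day 28 to 29. Every mouse was CX3CR1-CreERT2 (+/-) x RPL10a-GFP flox (+/-) per the sample labels, whereas the series design writes the floxed allele as fl/fl. Cre driven by the Cx3cr1 promoter is active in microglia after tamoxifen and switches on the ribosomal protein RPL10a fused to GFP, so that translating ribosome affinity purification (TRAP) with an antibody to GFP recovers RNA on microglial ribosomes. The dose of tamoxifen was 100 mg per kg, on postnatal days 15, 17 and 19. Controls carry the same alleles, received vehicle per the labels and are called untreated in the series design. Each replicate letter has 4 libraries. Input is total RNA of the homogenate, MG_TRAP its immunoprecipitate, SN_input total RNA of the synaptosome fraction and PeMP_TRAP the immunoprecipitate from that fraction, named SN_TRAP in the titles of letters G to K. There are 3 control letters (A to C) and 8 tamoxifen letters (D to K). The titles and files of A to F are named in 1 style and those of G to K in another. They are called the first and the second set here, and all controls are in the first. Nothing in the labels says whether letters are single or pooled animals, so p-values measure the spread between these samples, which may be technical.

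Assigned reads per library ranged from 746616 to 35584637. Second-set PeMP_TRAP libraries detected 5425 to 7436 genes each, fewer than the 9443 of the lowest other library, with at least 20442643 assigned reads in each. The check of the immunoprecipitation held in tamoxifen mice: the microglial genes Cx3cr1, P2ry12 and Tmem119 were higher in MG_TRAP than in Input by 6.56, 6.69 and 6.78 on the log2 scale, with SE of 0.55, 0.56 and 0.61. In PeMP_TRAP over SN_input they were higher by 2.91, 2.10 and 3.80, with SE of 0.47, 0.46 and 0.54. Rpl10a, whose transgene product carries the tag, was higher by 2.33 (SE 0.78, not called) in the first comparison and by 1.99 (SE 0.74, called) in the second. Levels below are log2 CPM (log2 of TMM-scaled counts relative to library size, with a prior count of 2 added), on which a count of 0 reads -2.80. Calls are Benjamini-Hochberg adjusted p-values under 0.05 from edgeR's quasi-likelihood test.

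Short sequences in the 3′ untranslated regions of these genes are shown because the RNA-binding protein Quaking, which is abundant in glia and binds the RNA motif ACUAAC, is known to act on transcripts of astrocyte processes. The motif was searched as ACTAAC on the sense strand of GENCODE M21 transcripts (GRCm38). It was present in 10 of the 32 members (31.2%), against 3433 of 20985 protein-coding genes (16.4%). The members' untranslated regions were also longer, with a median of 1217.5 bases against 803. Per kilobase, they held 0.268 sites against 0.158. Of the perisynaptic genes, 3 held a site and Glul held none. Of the 13 sites, those of Slc1a2, Slc1a3, Ttyh1 and Ndrg2 are shown, and those of the remaining genes, Aqp4 among them, are not. Each line gives 1 site with its flanks, 5′ to 3′, and the capitals mark the motif.
Slc1a2, first site: gtcacatacACTAACtccaggaac
Slc1a2, second site: tgggttcacACTAACactctgaat
Slc1a3: attttttatACTAACcatttctta
Ttyh1, first site: gctctgaccACTAACactgctggc
Ttyh1, second site: acctatggcACTAACttggaagag
Ndrg2: tttggccacACTAACttggatagc
The sites of Slc1a2 lie 2845 and 5599 bases into a region of 9250 bases, and 76.4% of genes with a region of like length held at least 1. The sites of Ttyh1 lie 20 and 287 bases into a region of 1429 bases, where 18% of like genes held one. That of Slc1a3 lies 1862 bases into 2008 (25.9%), and that of Ndrg2 671 bases into 869 (13.8%). A match of letters is a description and not a measured binding site.

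**Figure D1:**
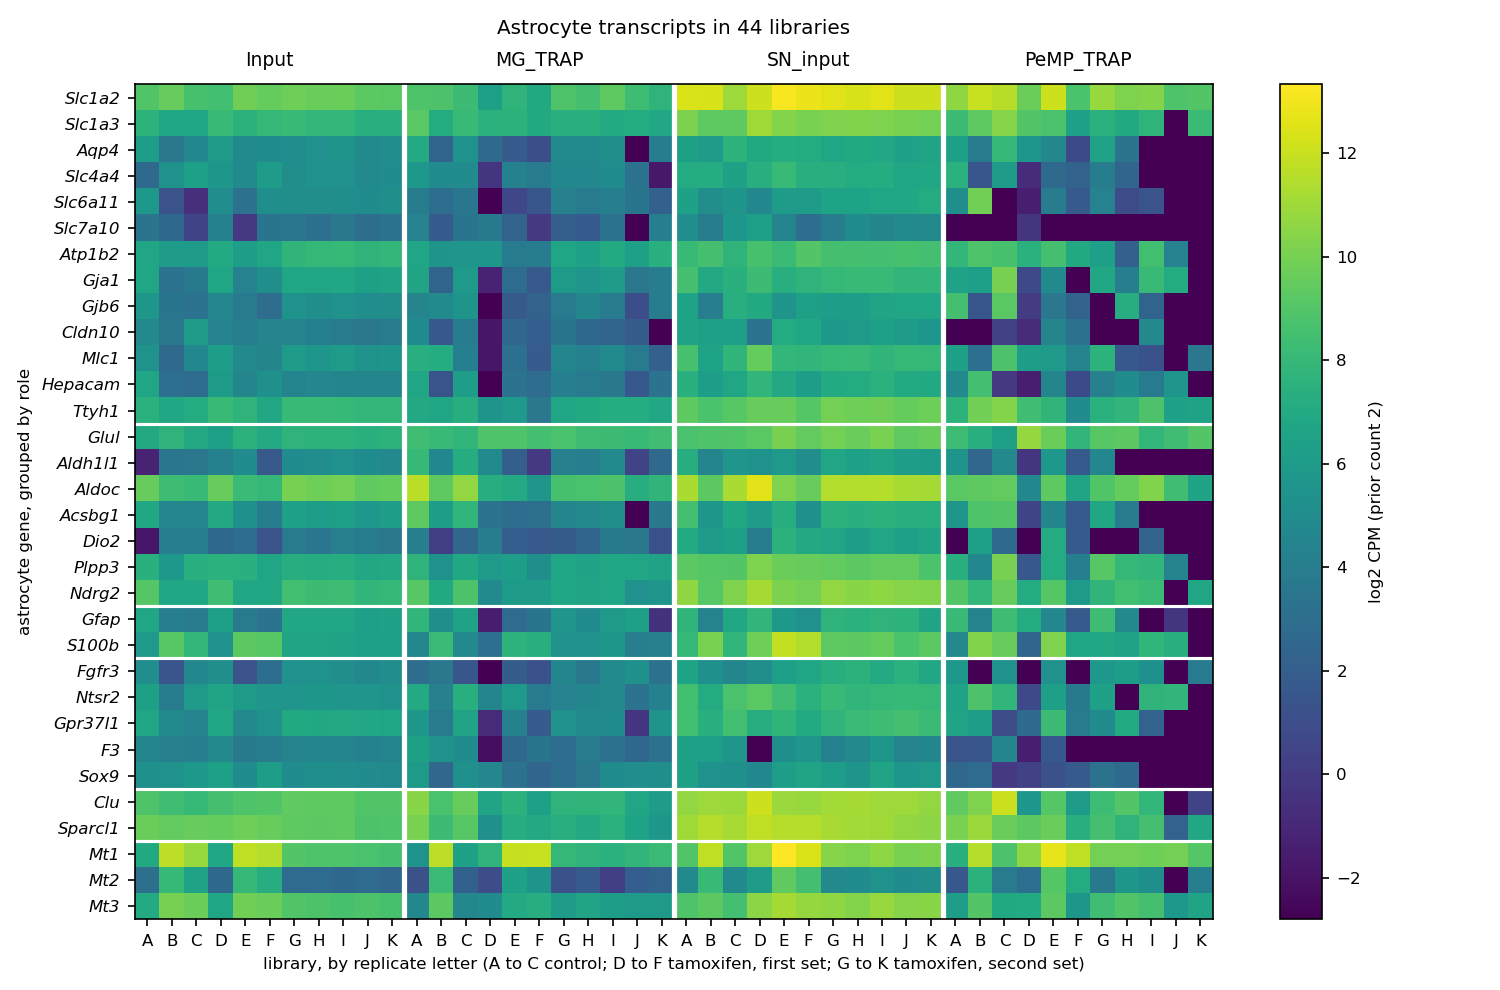
Level of each of the 32 astrocyte genes (rows, grouped by role) in each of the 44 libraries (columns, grouped by fraction and lettered by replicate), in log2 CPM; the darkest cells are counts of 0, which read -2.80. SN_input is the brightest block, and the dark cells gather in PeMP_TRAP, where letters J and K have 18 and 19 members at 0.

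The 32 genes together took 0.914% ± 0.107 of the assigned reads in tamoxifen Input (SD, n = 8). Their share was 1.94% ± 0.419 in SN_input, 0.376% ± 0.132 in MG_TRAP and 0.494% ± 0.269 in PeMP_TRAP. In control mice (n = 3 each) the shares were 0.830% ± 0.119 in Input, 1.71% ± 0.249 in SN_input, 1.10% ± 0.266 in MG_TRAP and 1.08% ± 0.156 in PeMP_TRAP. The astrocyte share therefore was highest in the synaptosome fraction under both treatments, and it was lower in both immunoprecipitates than in their inputs in tamoxifen mice, but not in MG_TRAP of control mice. Reads of the 15 microglial markers made up 0.0325% of tamoxifen Input, 2.97% of MG_TRAP, 0.241% of SN_input and 2.86% of PeMP_TRAP, and 0.048%, 0.534%, 0.295% and 0.424% in control mice. In bulk fractions, fewer pieces of a cell type and less RNA in each cannot be told apart, and a share falls when other transcripts rise.

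Per kilobase of exon, Mt1 and Mt3 had the highest levels in tamoxifen Input and SN_input, with means over both sets of 8.94 for Mt1 in Input and 10.72 in SN_input (log2 CPM per kilobase, n = 8). Their order differed between sets: in the first set Mt1 was above Mt3 (9.69 and 8.63 in Input, 11.96 and 10.72 in SN_input), and in the second Mt3 was above Mt1 (8.68 and 8.50 in Input, 10.43 and 9.97 in SN_input). In MG_TRAP and PeMP_TRAP Mt1 stood first in each set. Over both sets the next in SN_input were Mt3 (10.54), Sparcl1 (9.64), Aldoc (9.45), S100b (9.33) and Clu (9.30), of which the last 3 lay close together. S100b stood above Sparcl1 and Aldoc in the first set (10.45) and below Clu and Ndrg2 in the second (8.65). At the other end of SN_input stood Slc4a4 (3.80), Slc7a10 (3.55) and F3 (2.65, and 3.62 without letter D, which had no F3 read). Glul stood second in MG_TRAP, at 6.76, and in the third place of PeMP_TRAP, at 7.27.

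The first comparison asked which astrocyte transcripts go with synaptosomes, by setting total RNA of the synaptosome fraction against that of the homogenate. Every one of the 32 members had a higher fitted level in SN_input than in Input of tamoxifen mice, with a median log2 fold change of 1.96 against -0.02 over all 15710 genes tested. In edgeR, 9 members were called higher and 0 lower, beside 2.08% of all genes called higher. The groups did not overlap for 18 members, all higher in SN_input, beside 2.67% of all genes. By role, the calls fell on 3 of 13 transporters, channels and junction proteins and 3 of 7 genes of enzymes and metabolism. Among the other roles, calls were 1 of the pair Gfap and S100b, 0 of 5 receptors and transcription factors, 1 of 2 secreted proteins and 1 of 3 metallothioneins.

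Slc1a2 encodes the glutamate transporter GLT-1 (chromosome 2, 102658659 to 102790784, GRCm38), which clears most glutamate from forebrain synapses. Its 8 tamoxifen Input libraries ran from 8.45 through a median of 9.58 to 9.86 log2 CPM, and SN_input from 12.07 through 12.47 to 13.17. No SN_input library came near an Input library. The fitted log2 fold change was 3.11 (SE 0.42, adjusted p = 2.31e-06 in edgeR), the largest of the 32. Control mice read 8.94, 9.57 and 8.63 in Input and 12.41, 12.34 and 10.97 in SN_input, also apart (2.80, SE 0.83, not called, adjusted p = 0.698 in edgeR).

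Slc1a3, the gene of the second glial glutamate transporter, GLAST (chromosome 15, 8634124 to 8710764), ran from 7.35 through 7.88 to 8.15 in Input and from 9.93 through 10.21 to 11.05 in SN_input. It was higher by 2.54 (SE 0.59, adjusted p = 0.00995 in edgeR), and the groups did not overlap. Glul, glutamine synthetase, which turns the glutamate taken up into glutamine (chromosome 1, 153899944 to 153909723), ran from 6.39 through 7.60 to 7.72 in Input and from 9.18 through 9.62 to 10.06 in SN_input. Its groups did not overlap either, and the fitted difference was 2.3 (SE 0.37, adjusted p = 5.83e-05 in edgeR). Aqp4, the water channel of end feet (chromosome 18, 15389496 to 15410982), ran from 4.91 through 5.09 to 5.86 in Input and from 6.45 through 6.90 to 7.21 in SN_input. It too was higher in every SN_input library than in any Input library, at 1.68, but with an SE of 1.11 it was not called (adjusted p = 0.69 in edgeR).

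**Figure D2:**
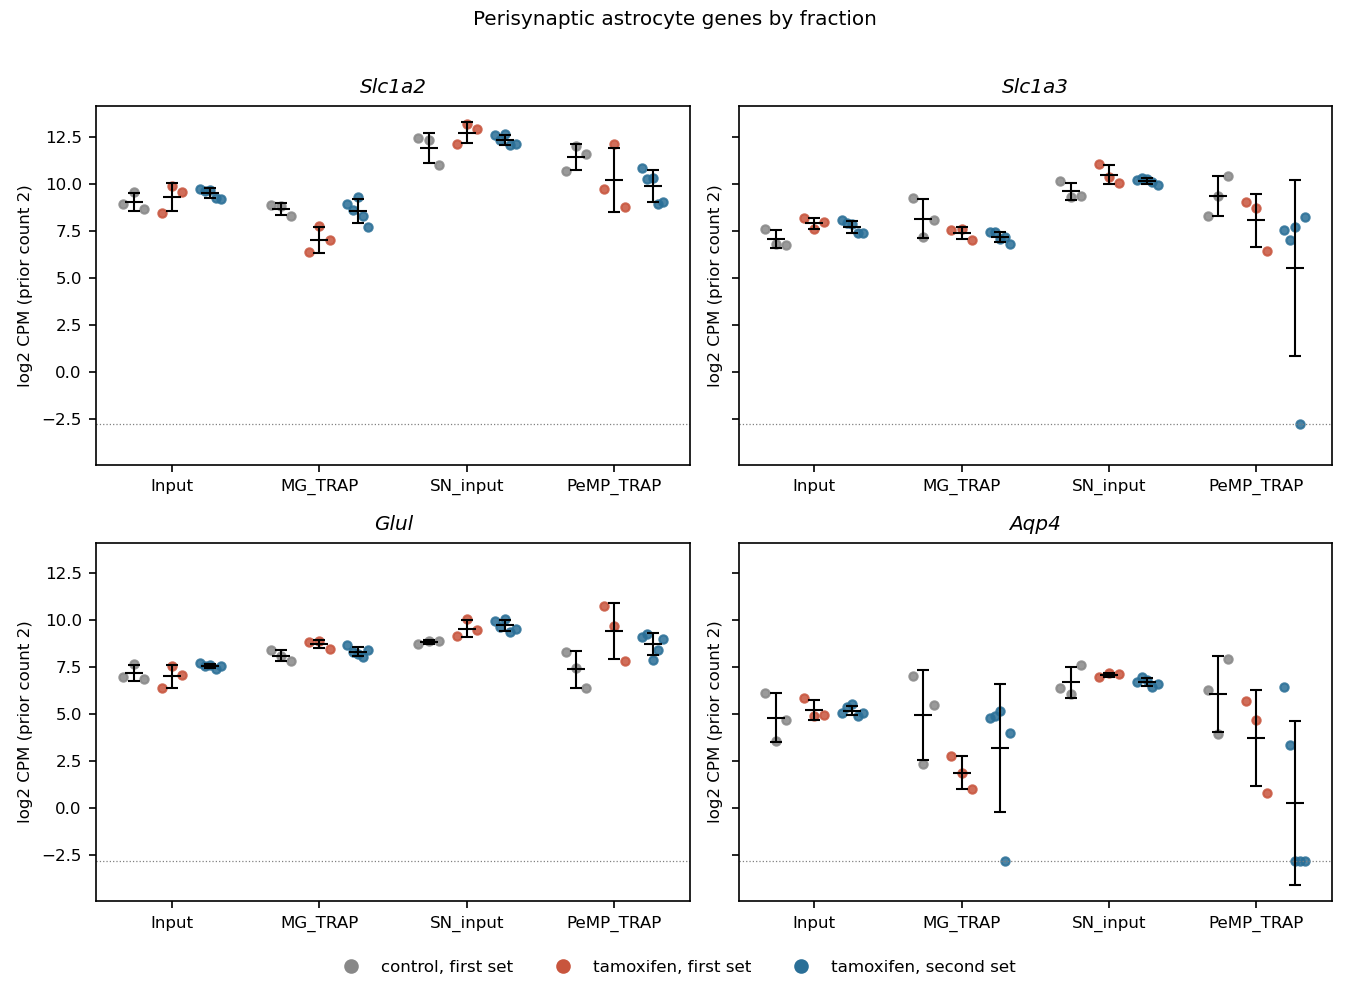
Level of the 4 perisynaptic genes (log2 CPM, prior count 2) in each library by fraction; points are libraries, bars mean and SD of the 3 control, 3 first-set and 5 second-set tamoxifen libraries, and the dotted line marks a count of 0. SN_input lies above Input for each gene in tamoxifen mice, MG_TRAP of tamoxifen mice lies above Input for Glul alone among the 4, and PeMP_TRAP libraries scatter most, down to a count of 0 for Slc1a3 and Aqp4.

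The other calls were S100b, a calcium-binding protein (2.73, SE 0.77), Ndrg2 (2.61, SE 0.64), Aldoc, the aldolase form of astrocytes (2.12, SE 0.50), Sparcl1, a secreted protein that promotes synapse formation (1.94, SE 0.46), Ttyh1, a membrane protein of the tweety family (1.82, SE 0.44), and Mt3 (1.73, SE 0.45). Of these, S100b ran from 5.33 through 6.53 to 9.29 in Input and from 8.75 through 9.42 to 11.83 in SN_input. Its groups overlapped, letters E and F were high in both fractions, and SN_input was higher in 8 of 8 letters. Ndrg2 ran from 6.76 through 8.11 to 8.46 and from 9.99 through 10.43 to 11.14. Sparcl1 ran from 8.81 through 9.32 to 9.75 and from 10.54 through 11.16 to 11.80. Both were without overlap between Input and SN_input. Ttyh1 (6.89 through 7.94 to 8.14, then 9.10 through 9.66 to 9.93) and Mt3 (6.69 through 8.83 to 9.85, then 10.32 through 10.58 to 11.14) did not overlap either. Members that were not called had positive values as well, and those named here had adjusted p-values of 0.0667 (Plpp3) to 0.84 (Gfap) in edgeR. They included Plpp3, a lipid phosphatase (2.44, SE 0.74), Mlc1, a membrane protein of end feet (2.72, SE 0.89), Clu, the secreted chaperone clusterin (2.14, SE 0.71), Hepacam, the adhesion protein GlialCAM (2.21, SE 0.92), and Ntsr2, a neurotensin receptor (2.42, SE 0.90), which did not overlap with Input. The connexins Gja1 (1.8, SE 0.87) and Gjb6 (1.89, SE 1.15) and the sodium pump subunit Atp1b2 (1.18, SE 0.74) did not overlap either, whereas Gfap, the intermediate filament of astrocytes (1.18, SE 1.06), and the growth factor receptor Fgfr3 (2.2, SE 1.0) did. The smallest differences of the list were those of F3, coagulation tissue factor (0.51, SE 1.10), and Sox9, a transcription factor of glia (0.60, SE 0.93), and neither was called.

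All 4 fractions shared 1 estimate of spread in this fit, and the count of calls differed with the libraries fitted. With Input and SN_input alone, 30 members were called higher, beside 11.7% of all genes, and the exceptions were F3 and Sox9. With the second set of those groups alone, a fit added after seeing the data, 31 were called, beside 24.7%, with F3 the exception. The second set within the fit of 4 fractions gave 5 calls (3.46% of all genes) and 30 members without overlap (19.1%). The first set gave 0 calls (0.0463% of all genes), 13 members at an unadjusted p under 0.05 (6.05%) and 21 without overlap (7.4%). DESeq2 called 2 members, Slc1a2 and Glul, beside 1.47% of all genes. Scaling also mattered: RLE factors moved the median of all genes from -0.02 to -0.72 and total counts to -1.07, and under each Slc1a2 and Glul alone were called (0.853% and 0.592% of all genes). F3 and Sox9 were then below 0, at -0.21 and -0.11 with RLE factors, and Acsbg1 joined them with total counts, at -0.19. The other 29 members stayed positive under both scalings.

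Other cell types moved with the fraction as well. Of 26 further astrocyte genes fixed as a list, all were positive, with a median of 1.67 and 1 call, the potassium channel Kcnj10 (3.40, SE 0.81, adjusted p = 0.012 in edgeR). The 15 microglial markers had a median of 3.71 with 14 called higher, the 15 oligodendrocyte markers 1.55 with 3 called higher, and the 15 neuronal markers -0.34 with 0 called. The summed oligodendrocyte reads ran from 0.411% to 0.930% of a library in Input and from 0.362% to 6.18% in SN_input. Mitochondrial reads made up 1.19% to 12.6% of a library in tamoxifen Input and 15.3% to 66.0% in SN_input, with the highest values in E and F of both fractions. The part of these values in the astrocyte result was not tested.

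In control mice, 29 of 32 members were positive in SN_input over Input, with a median of 1.70 against -0.11 over all genes. Neither a member nor any other gene was called by edgeR. At an unadjusted p under 0.05 the count was 8 members, beside 6.84% of all genes, and DESeq2 called 2 members higher, beside 0.711%. The 3 members that were not positive were the metallothioneins.

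**Figure D3:**
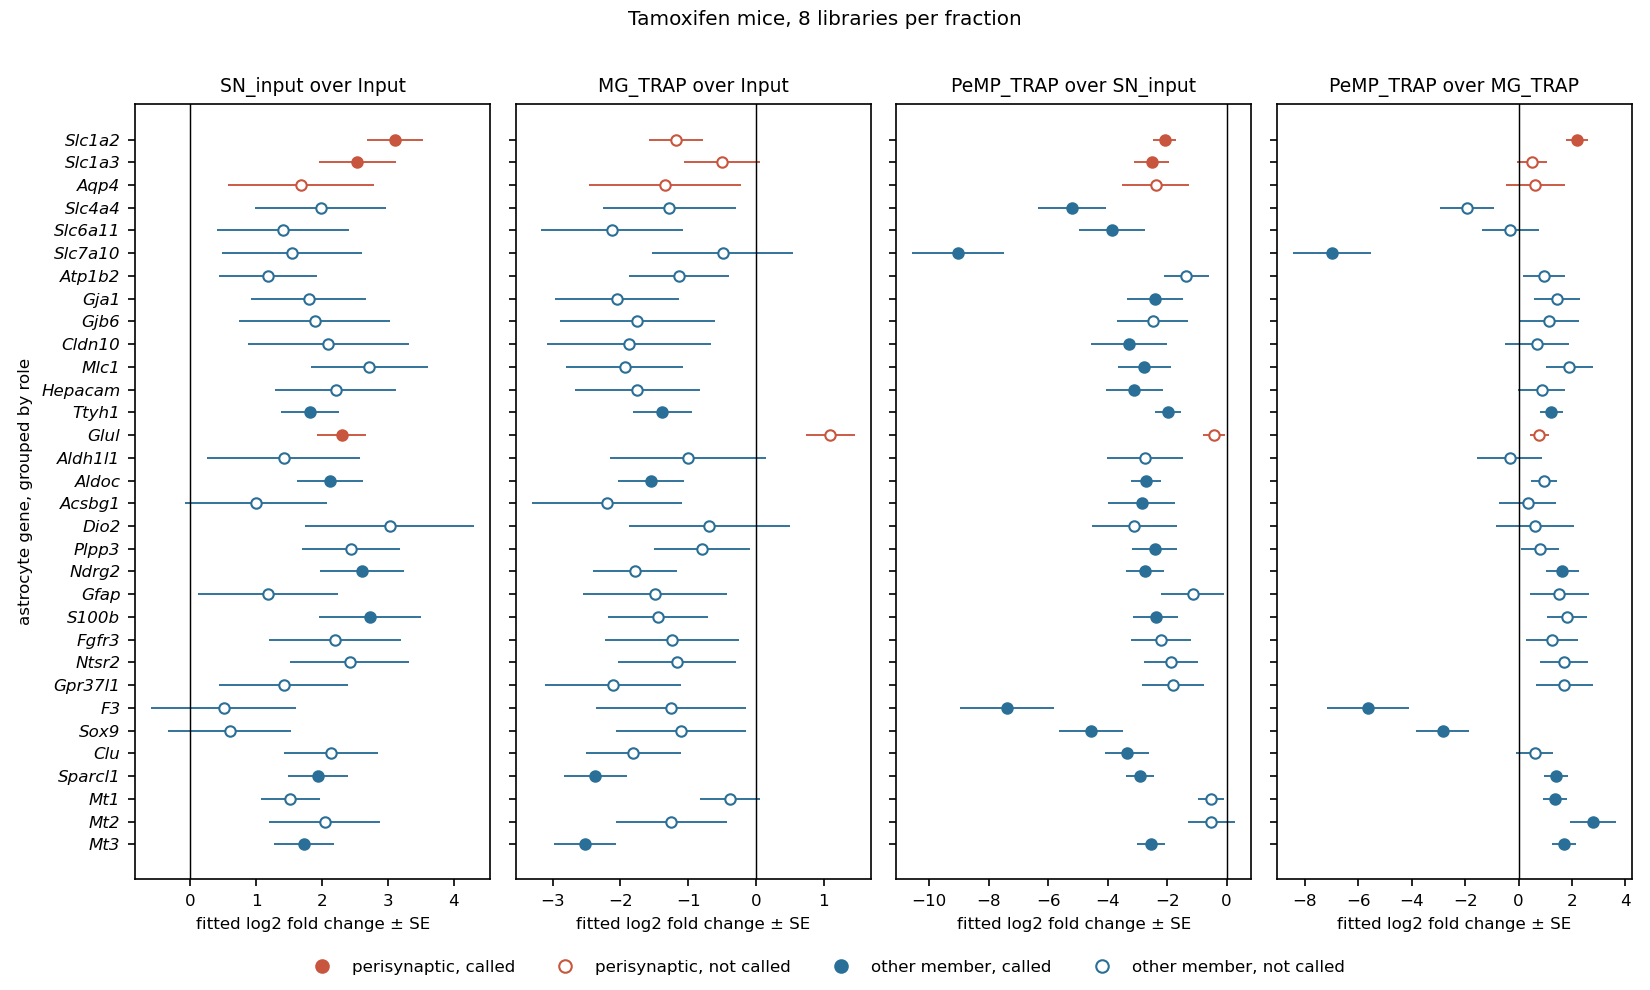
Fitted log2 fold change ± SE (edgeR) of each of the 32 members in the 4 comparisons between fractions of tamoxifen mice, 8 libraries per fraction; filled points were called at an adjusted p under 0.05, red points are the perisynaptic genes. All 32 points lie above 0 in SN_input over Input, 31 of 32 lie below 0 in MG_TRAP over Input with Glul the exception, and all 32 lie below 0 in PeMP_TRAP over SN_input; the points of Slc7a10 and F3 in PeMP_TRAP rest on at most 4 reads a library and give no size.

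The next comparison asked how astrocyte RNA stands in the immunoprecipitate of microglial ribosomes from the homogenate. In MG_TRAP over Input of tamoxifen mice, 31 of 32 members were negative, with a median of -1.36 against -0.14 over all genes. In edgeR 4 were called lower, beside 2.15% of all genes, and 0 higher, beside 4.67%. The groups did not overlap for 5 members lower (3.6% of all genes) and for 1 higher (5.47%). The 28 other members had a median of -1.47 and the 4 perisynaptic genes -0.84.

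The 4 calls were Mt3, a metal-binding metallothionein (-2.52, SE 0.46), Sparcl1 (-2.37, SE 0.46), Aldoc (-1.55, SE 0.49) and Ttyh1 (-1.38, SE 0.44), with adjusted p of 0.000194, 0.000531, 0.0439 and 0.0446 in edgeR. Against the Input values above, Mt3 in MG_TRAP ran from 4.98 through 6.20 to 7.27 and Sparcl1 from 5.28 through 6.95 to 7.50. Sparcl1 did not overlap with Input, and Mt3 overlapped through Input library D at 6.69. Aldoc ran from 7.97 through 9.55 to 10.05 in Input and from 5.64 through 7.51 to 8.80 in MG_TRAP. Ttyh1 ran from 3.59 through 6.81 to 7.19 in MG_TRAP. Both overlapped with Input, and all 4 genes were lower in 8 of 8 letters.

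Glul went the other way. MG_TRAP held 8.86, 8.91 and 8.50 log2 CPM in letters D to F and 8.68, 8.31, 8.23, 8.08 and 8.41 in G to K, and Input 6.39, 7.59 and 7.09, then 7.72, 7.60, 7.62, 7.43 and 7.60. Every MG_TRAP library was above every Input library, and within each of the 8 letters Glul ranked first or second of the 32 members by its difference. The fitted log2 fold change was 1.10 (SE 0.36), which edgeR did not call (adjusted p = 0.0544). It was called with the compared groups alone (1.2, adjusted p = 0.000488 in edgeR) and with the letter as a replicate block (1.08, adjusted p = 0.0498 in edgeR). The scaling changed its size but not its sign, with 0.62 for RLE factors and 0.85 for total counts. In control mice Glul read 8.41, 8.13 and 7.83 in MG_TRAP and 7.0, 7.69 and 6.91 in Input, again without overlap (1.00, SE 0.81, not called), but its difference ranked only 10, 10 and 16 of the 32 in letters A to C.

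Slc1a2 read 6.34, 7.72 and 6.98 in MG_TRAP letters D to F and 8.90, 8.58, 9.31, 8.29 and 7.67 in G to K. It was lower than Input in 8 of 8 letters, yet the groups overlapped (-1.18, SE 0.40, adjusted p = 0.0641 in edgeR). Slc1a3 ran from 6.78 through 7.29 to 7.59 (-0.50, SE 0.56) and Aqp4 from a count of 0 through 3.39 to 5.18 (-1.34, SE 1.12). Neither was called. As a share of the members' reads, Slc1a2 made up 3.64% of MG_TRAP in the first set and 15% in the second, against a mean of 11% in Input.

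Counts of calls again moved with the libraries fitted. With MG_TRAP and Input alone, edgeR called 15 members lower (9.18% of all genes) and Glul higher (14.1% of all genes). The second set gave 3 lower (2.68%). The first set gave 0 calls (0.0308% of all genes lower), 9 members at an unadjusted p under 0.05 (14.1%) and 20 without overlap, beside 18.2% of all genes. DESeq2 called 11 lower (5.68%). The 15 microglial markers were all called higher, with a median of 6.56, and neuronal and oligodendrocyte markers had medians of -1.43 and -1.45, near the astrocyte value. The further astrocyte genes had a median of -1.41 and 0 calls, with 2 at an unadjusted p under 0.05 in edgeR (16% of all genes) and 3 calls in DESeq2.

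In control mice the members were not lower in the immunoprecipitate as a list. In control MG_TRAP over Input, 18 of 32 members were positive, the median was 0.32 against 0.00 over all genes, and the perisynaptic median was 0.91. The highest were Aldh1l1, a folate enzyme used to mark astrocytes (4.32, SE 1.67, and 2.86 without letter A, whose Input read -1.27), Acsbg1, an acyl-CoA synthetase (2.60, SE 1.17), Mlc1 (2.15, SE 1.2, and 1.38 without letter B), and Aldoc (2.10, SE 0.97). No member was called by edgeR, which called 2 of 14771 genes (0.0135%), 3 members passed an unadjusted p under 0.05, beside 7.45% of all genes, and DESeq2 called 0 members (1.51% of all genes). The microglial markers were positive in control mice too, with a median of 3.48 and 0 called. Of these 15 markers, 14 passed an unadjusted p under 0.05 in edgeR, beside 7.45% of all genes.

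For 6 members, every control letter moved up and every tamoxifen letter moved down from Input to MG_TRAP, a pattern found in 1.48% of 18291 genes. They were Aldoc, Ntsr2, Acsbg1, Clu, Ndrg2 and F3. Acsbg1 had a mean difference of 2.38 in control letters and -2.79 in tamoxifen letters, or -1.96 without letter J, whose MG_TRAP had a count of 0. The difference between treatments in this step was not tested. In MG_TRAP itself, 13 members were lower in all 3 first-set tamoxifen libraries than in all 3 control libraries, beside 13.3% of all genes, and 1, Glul, was higher, beside 15.3%. No gene was called by edgeR, with 15 members at an unadjusted p under 0.05 beside 15.9% of all genes, and DESeq2 called 9 members lower (2.73%). The largest differences were those of Acsbg1 (-5.38, SE 1.34), Mlc1 (-4.92, SE 1.36), Gfap (-4.51, SE 1.5), and Aldoc (-4.28, SE 1.07), with a median of -2.30 over the 32. Neuronal markers had a median of -2.39 (13 of 15 lower without overlap), oligodendrocyte markers -2.57 (6 of 15), the further astrocyte genes -2.96 (12 of 26) and microglial markers 2.96 (15 of 15 higher). Their part in the members' values was not tested. This comparison uses the same MG_TRAP libraries as those with Input.

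The third comparison set the immunoprecipitate of the synaptosome fraction against its total RNA. In PeMP_TRAP over SN_input of tamoxifen mice all 32 members were negative, with a median of -2.53 against -0.75 over all genes. In edgeR 20 were called lower, beside 26.1% of all genes, and 0 higher, beside 6.15%. Between the groups 12 members did not overlap, all lower, beside 3.55% of all genes. Calls fell on 10 of 13 transporters, channels and junction proteins and 4 of 7 genes of enzymes and metabolism. Among the other roles, calls were 1 of the pair Gfap and S100b, 2 of 5 receptors and transcription factors, both secreted proteins and 1 of 3 metallothioneins. SN_input libraries enter this comparison and the first one.

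The lowest fitted values were those of Slc7a10, the Asc-1 transporter of serine and other small neutral amino acids, of F3 and of Slc4a4, the sodium bicarbonate cotransporter. Slc7a10 had a count of 0 in 7 of 8 tamoxifen PeMP_TRAP libraries and 3 reads in the eighth, against 3.0 through 4.65 to 6.37 log2 CPM in SN_input. At a floor of 3 counts per library (at most 4.89 CPM) its mean of 29.9 CPM in SN_input makes it at least 6.12-fold lower. F3 had a count of 0 in 6 libraries and at most 4 reads in the others, while SN_input ran from 0 through 4.69 to 5.71 (adjusted p = 0.000592 in edgeR). With so few reads its fitted fold change gives no size. Its groups overlapped through SN_input letter D, which had no F3 read. Slc4a4 ran from 0 reads through 0.79 to 4.02 log2 CPM in PeMP_TRAP and from 6.77 through 7.24 to 8.05 in SN_input, without overlap (-5.21, SE 1.15, adjusted p = 0.000821 in edgeR).

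Among the perisynaptic genes, Slc1a2 read 9.70, 12.11 and 8.78 in PeMP_TRAP letters D to F and 10.81, 10.24, 10.31, 8.89 and 9.03 in G to K, and was lower than SN_input in 8 of 8 letters (-2.09, SE 0.40, adjusted p = 0.000239 in edgeR). Letter E alone reached the SN_input range. Slc1a3 read 9.03, 8.68 and 6.41, then 7.52, 7.0, 7.68, a count of 0 and 8.20, all below SN_input (-2.52, SE 0.59, adjusted p = 0.00142 in edgeR). Aqp4 read 5.69, 4.69 and 0.83, then 6.48, 3.40 and 3 counts of 0, and was not called (-2.39, SE 1.14, adjusted p = 0.104 in edgeR). Glul stayed nearest to its input, with 10.77, 9.71 and 7.84, then 9.13, 9.29, 7.88, 8.41 and 8.99 (-0.43, SE 0.36, not called), and its groups overlapped. Mt1 (-0.54, SE 0.44) and Mt2 (-0.51, SE 0.80), metallothioneins found in many cell types, also had small differences that were not called. The smallest called differences were those of Ttyh1 (-1.97, SE 0.44), Slc1a2 and S100b (-2.38, SE 0.76). Ttyh1 ran from 4.96 through 7.63 to 8.83, below all SN_input libraries, and S100b from 0 reads through 6.80 to 10.20.

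Members at a count of 0 were spread unevenly over the PeMP_TRAP libraries. Letters D to F had 2, 1 and 4, letters G to I 5, 6 and 8, and letters J and K 18 and 19 of the 32. Without PeMP_TRAP letters J and K, an alternative added after seeing the data, 19 members were called lower, beside 23.5% of all genes. With PeMP_TRAP and SN_input alone the count was 11 (15.4%), and with those groups of the second set alone, also added after seeing the data, 8 (22.2%). In the fit of 4 fractions the second set gave 18 (39.3%), with 25 members without overlap beside 29.9% of all genes. The first set gave 3 (0.47%), with 19 without overlap beside 11.4% and a median of -2.66 against 0.03 over all genes. DESeq2 called 26 (32.4%). Microglial markers were all called higher, with a median of 3.49. The further astrocyte genes had a median of -3.62 with 15 called lower, most so Bmpr1b and Slc39a12 and least so Mfge8 (-1.88, SE 0.66) and Mmd2 (-2.3, SE 0.74), oligodendrocyte markers -3.10 and neuronal markers -1.73.

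In control mice the same comparison gave 11 positive and 21 negative members, with a median of -0.38 against -0.27. No gene was called by edgeR, 3 members passed an unadjusted p under 0.05, beside 17.4% of all genes, and DESeq2 called 3 members lower (5.63%). Slc1a2 read 10.65, 11.99 and 11.57 in control PeMP_TRAP (-0.42, SE 0.78). Glul read 8.33, 7.47 and 6.39, below the 8.73, 8.89 and 8.93 of control SN_input (-1.02, SE 0.81). Slc7a10 had 0 reads in all 3 control PeMP_TRAP libraries.

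Between treatments, 6 members were called lower in first-set tamoxifen PeMP_TRAP than in control PeMP_TRAP by edgeR, beside 5.56% of all genes. The median of the 32 was -1.48. It was -2.49 for neuronal markers (3 called lower), -2.45 for oligodendrocyte markers (4 lower), -8.02 for the 9 endothelial markers tested (4 lower), -2.36 for the further astrocyte genes (2 lower) and 3.72 for microglial markers (10 higher), and the part of these in the members' values was not tested. The 6 were the connexins Gjb6 (-5.97, SE 1.66) and Gja1 (-5.25, SE 1.51), the GABA transporter Slc6a11 (-5.84, SE 1.94), Acsbg1 (-5.19, SE 1.34), Slc4a4 (-4.76, SE 1.48) and Clu (-3.22, SE 0.91). Single libraries weighed heavily on these values. Gjb6 read 1.54, 8.57 and 9.21 over the 3 control libraries from lowest to highest, and Slc6a11 read a count of 0, 5.21 and 9.87. Both overlapped with the tamoxifen libraries. Clu read 9.42, 10.19 and 12.04 in control libraries and was lower in all 3 tamoxifen libraries, and Gja1 (6.31, 6.48 and 10.02) and Acsbg1 (5.72, 8.88 and 8.93) did not overlap with them either. With Ntsr2 and Sparcl1, 5 members did not overlap, beside 4.27% of all genes. Without letter F 0 of the 6 were called (0.588% of all genes lower), and with the PeMP_TRAP libraries alone, where 26 members and not Slc4a4 passed the filter, 0 members were called (0.0921% of all genes lower). Without C edgeR called 2 members lower (2.24%), without D 2 lower (1.8%) and 1 higher (4.36%), and DESeq2 called 11 lower (14.8%). Between tamoxifen and control inputs edgeR called 0 genes, in Input as in SN_input, and 0 members passed an unadjusted p under 0.05, beside 3.06% and 3.35% of all genes, and DESeq2 called 0 members in either (0.325% and 0.433% of all genes).

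The last comparison between fractions set both immunoprecipitates side by side. In PeMP_TRAP over MG_TRAP of tamoxifen mice 7 members were called higher by edgeR, beside 3.17% of all genes, and 3 lower, beside 22%. The median was 0.96 against -0.57 over all genes, and no member was without overlap, beside 0.0955% of all genes higher and 1.77% lower. The 26 further astrocyte genes had a median of -0.59, near that of all genes, with 7 called lower, among them Slc39a12 and Slc1a4, and 1 higher, Kcnj10 (2.99, SE 0.81). Neuronal, oligodendrocyte and microglial markers had medians of -0.55, 0.34 and 0.75, so the positive median of the 32 was not shared by the other astrocyte list. Slc1a2 was higher in 8 of 8 letters (2.19, SE 0.42, adjusted p = 0.000328 in edgeR). All 3 metallothioneins were called, Mt2 at 2.78 (SE 0.86), Mt3 at 1.71 (SE 0.45) and Mt1 at 1.36 (SE 0.45). The other calls were Ndrg2 (1.64, SE 0.62), Sparcl1 (1.40, SE 0.46) and Ttyh1 (1.23, SE 0.44).

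Mt2 ran from 0.18 through 1.93 to 6.44 in MG_TRAP and from 0 reads through 4.68 to 9.10 in PeMP_TRAP, and was higher in 7 of 8 letters. Mt3 ran from 5.75 through 7.71 to 9.27 in PeMP_TRAP, higher than MG_TRAP in 6 of 8 letters. The 3 members called lower were Slc7a10, at least 1.38-fold lower against its floor, F3, with at most 4 reads in a PeMP_TRAP library, and Sox9 (-2.84, SE 1.00, adjusted p = 0.0311 in edgeR). Sox9 ran from 2.47 through 4.13 to 5.21 in MG_TRAP and from 0 reads through 0.78 to 3.25 in PeMP_TRAP. Slc1a3 (0.51, SE 0.57), Glul (0.77, SE 0.36) and Aqp4 (0.63, SE 1.12) were not called, and each fell below 0 with total counts. Fitted values follow the reads and mean log2 levels the libraries, so that Slc1a3 had a lower mean level in PeMP_TRAP (6.46 ± 3.84) than in MG_TRAP (7.24 ± 0.29, SD, n = 8) although its fitted difference was positive. Total counts left 1 member called higher (Slc1a2, at 1.45; 1.24% of all genes) and RLE factors 3 (1.83%), and these scalings moved the median of all genes from -0.57 to -1.30 and -1.10. Slc1a2 was not called with the second-set libraries of both groups alone (1.03, adjusted p = 0.191 in edgeR). With the letter as a replicate block, edgeR called 5 members higher (2.27% of all genes) and 2 lower (20.2%).

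A term for the difference of the 2 enrichments, PeMP_TRAP over SN_input minus MG_TRAP over Input, was called lower for 3 members, beside 10.9% of all genes. They were Glul (-1.53, SE 0.50), and F3 and Slc7a10, for which the few reads in PeMP_TRAP give no size. The median of this term was -0.97 over the 32 members, near the -0.79 of all genes. It was -1.29 for the perisynaptic genes and -0.94 for the other members. The 15 microglial markers had a median of -3.17, with 14 called lower. With the letter as a replicate block, edgeR called 2 members lower (5.26% of all genes). For Slc1a2 the difference was -0.91 (SE 0.55) and was not called. Whether the comparisons differed between sets was tested too. For PeMP_TRAP over MG_TRAP the second set was lower than the first for Slc1a2, Slc7a10 and F3, beside 14.8% of all genes called lower, and for PeMP_TRAP over SN_input for F3, beside 14.9%. Slc7a10 and F3 had 0 reads in all 5 second-set PeMP_TRAP libraries, and Slc7a10 at most 3 in the first set, so their values measure no size of a difference.

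**Figure D4:**
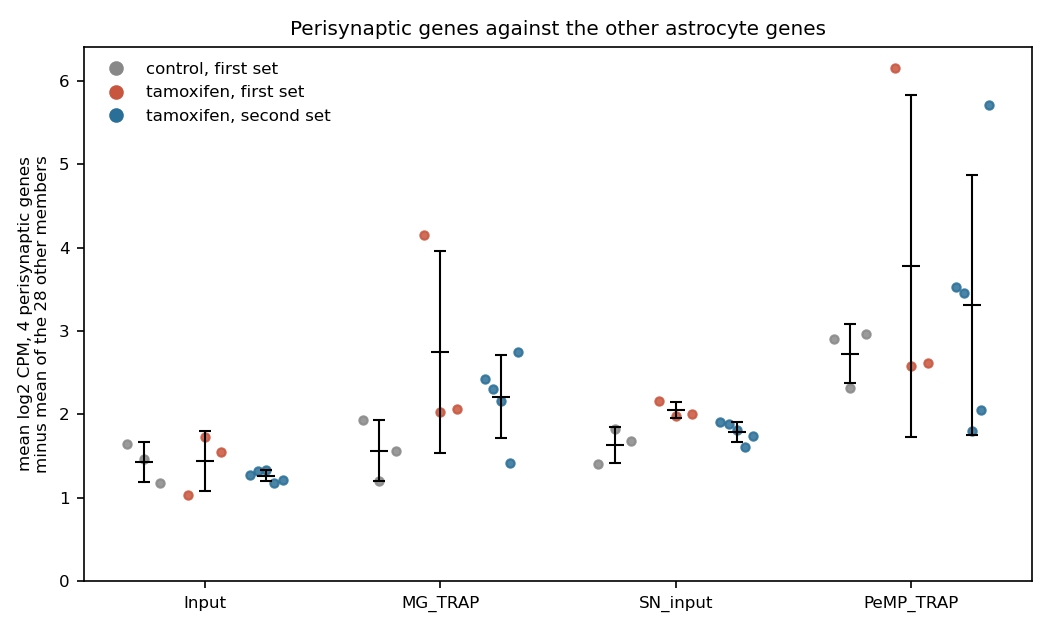
Mean log2 CPM of the 4 perisynaptic genes minus that of the 28 other members in each library, by fraction; points are libraries, bars mean and SD of the 3 control, 3 first-set and 5 second-set tamoxifen libraries. SN_input lies slightly above Input with a small spread, while MG_TRAP and PeMP_TRAP libraries spread widely, with letter D highest in both.

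As a summary per library, the mean level of the perisynaptic genes minus that of the other 28 was 1.33 ± 0.219 in tamoxifen Input, 1.89 ± 0.170 in SN_input, 2.41 ± 0.80 in MG_TRAP and 3.49 ± 1.63 in PeMP_TRAP (SD, n = 8 each, log2 scale). The step from Input to SN_input was 0.56, more than the pooled SD of 0.20 between libraries. From Input to MG_TRAP it was 1.08 (pooled SD 0.59), from SN_input to PeMP_TRAP 1.60 (1.16), and from MG_TRAP to PeMP_TRAP 1.08 (1.28), where the spread was as large as the step. In control mice the values were 1.43 ± 0.236, 1.63 ± 0.215, 1.57 ± 0.367 and 2.73 ± 0.354 in the order Input, SN_input, MG_TRAP, PeMP_TRAP (n = 3 each). Members at a count of 0, on average 7.88 of the 32 in a tamoxifen PeMP_TRAP library, enter it at the value that the prior count sets, so its size in PeMP_TRAP depends on that choice: with a prior count of 0.5 the steps into PeMP_TRAP were 1.89 from SN_input and 1.34 from MG_TRAP. No p is given for this score. Without Glul the step from Input to MG_TRAP was 0.43, and without Slc1a2 the step from Input to SN_input was 0.33. Fitted medians of the perisynaptic genes and the other 28 were 2.42 and 1.92 in SN_input over Input. They were -2.24 and -2.74 in PeMP_TRAP over SN_input, also in the direction of the score. In PeMP_TRAP over MG_TRAP the fitted medians were 0.70 and 1.05, the reverse of the score.

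Across the 8 group means (4 fractions by 2 treatments), the 4 perisynaptic genes did not share 1 pattern. Pearson's r over these 8 points, which share libraries and scaling, was 0.816 between Slc1a2 and Slc1a3, 0.885 between Slc1a3 and Aqp4, 0.664 between Slc1a2 and Aqp4, 0.451 between Slc1a2 and Glul, 0.333 between Slc1a3 and Glul and -0.03 between Glul and Aqp4. Of 4477 genes with an average of at least 4 log2 CPM, those like Slc1a2 included Zbtb20 (0.981) and the member Ttyh1 (0.966). Slc1a3 was most like Bcas1 (0.985), the member Ntsr2 (0.964) and Nsmf (0.963), and Aqp4 most like the myelin gene Mog (0.994), Stox2 (0.985) and the member Clu (0.984). Glul was most like Apoe (0.921), Specc1 (0.892) and Mpeg1, a macrophage gene (0.874). These are descriptions over 8 points.

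Mt1 and Mt2 differed between tamoxifen libraries more than most members in Input, with ranges of 5.05 and 5.41 beside a median range of 1.76 over the 32, and in SN_input, with 3.27 and 4.58 beside 1.65. This was not so in every fraction: in PeMP_TRAP the range of Mt1 was 3.69 and that of Mt2 11.9, beside 9.14, and in MG_TRAP they were 4.43 and 6.26, beside 4.8. Mt1 ran from 6.71 to 11.76 in tamoxifen Input and from 10.06 to 13.33 in SN_input, and in control Input from 7.02 to 11.75. In every fraction the first-set letters B, E and F held the 3 highest values of Mt1 and of Mt2. These genes are known to be switched on by metal ions through metal response elements, whose core is written here as TGCACNC or TGCGCNC, and their promoters are shown because Mt1 and Mt2 vary together. Each line gives the RefSeq window (GRCm38.p6) from 250 bases before to 50 bases after the gene's start, on the plus strand, with matches on either strand in capitals.
Mt1, chr8:94178839-94179138: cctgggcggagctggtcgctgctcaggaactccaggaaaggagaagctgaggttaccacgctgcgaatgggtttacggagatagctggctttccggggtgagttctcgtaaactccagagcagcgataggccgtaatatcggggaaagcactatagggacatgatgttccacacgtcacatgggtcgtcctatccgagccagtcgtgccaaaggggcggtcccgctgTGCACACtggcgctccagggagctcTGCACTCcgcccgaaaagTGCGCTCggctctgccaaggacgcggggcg
Mt2, chr8:94172368-94172667: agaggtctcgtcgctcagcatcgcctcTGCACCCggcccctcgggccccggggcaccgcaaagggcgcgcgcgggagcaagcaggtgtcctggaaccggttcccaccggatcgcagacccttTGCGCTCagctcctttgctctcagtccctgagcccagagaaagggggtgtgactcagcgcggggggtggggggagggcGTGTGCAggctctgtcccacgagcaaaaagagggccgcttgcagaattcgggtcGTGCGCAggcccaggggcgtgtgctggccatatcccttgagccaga
Mt3, chr8:94152357-94152656: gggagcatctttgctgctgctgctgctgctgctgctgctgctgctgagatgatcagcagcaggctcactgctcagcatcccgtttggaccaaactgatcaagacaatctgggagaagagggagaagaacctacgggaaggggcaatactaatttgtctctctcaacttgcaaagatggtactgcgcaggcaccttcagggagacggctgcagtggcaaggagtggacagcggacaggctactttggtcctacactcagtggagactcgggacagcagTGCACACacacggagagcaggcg
Mt1 holds 3 matches, Mt2 4 and Mt3 1, and none overlaps another. Of 32851 RefSeq promoters of the same length, 25.7% hold at least 1 match, 1.97% at least 3 and 0.517% at least 4. The matches are letters in a window and no measure of binding.

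**Figure D5:**
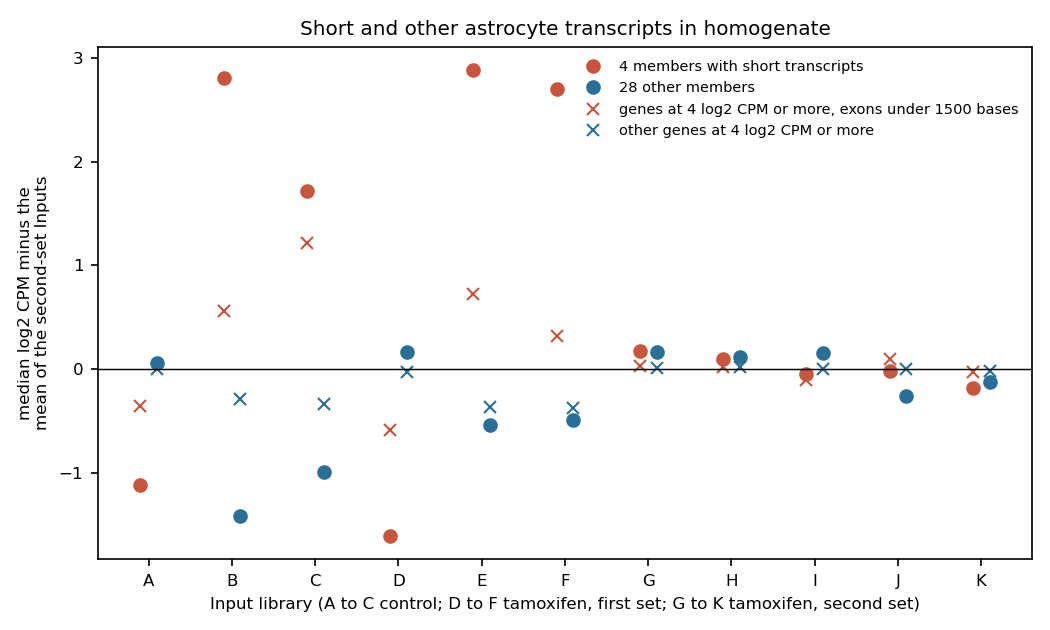
Median log2 CPM difference of each Input library from the mean of the second-set Input libraries, for the 4 members with exons under 1500 bases (S100b, Mt1, Mt2 and Mt3), the 28 other members, and 391 genes with exons under 1500 bases and 6517 other genes that reach 4 log2 CPM there. Letters B, C, E and F show the 4 short members above the line by 1.72 to 2.88 and the other members below it, and the second-set libraries lie near 0.

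Those 4 members share short transcripts, with exons under 1500 bases. In Input their median difference from the mean of the second-set Input libraries was 2.81, 1.72, 2.88 and 2.7 in letters B, C, E and F, and -1.12 and -1.61 in A and D. The 28 other members stood at -1.42, -0.99, -0.54 and -0.49, and at 0.06 and 0.16. The 391 genes with exons under 1500 bases and a mean of at least 4 log2 CPM in second-set Input lay on the same side in each of these letters, by 0.56, 1.21, 0.72 and 0.32 and by -0.36 and -0.59. The part of transcript length in the values of the metallothioneins and S100b was not tested.

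The exons of 8 members overlap another gene in GENCODE M21 (Slc1a2, Glul, Aldh1l1, Fgfr3, Slc7a10, Mt2, Ttyh1 and Dio2), and how reads in such stretches were counted is not given in the sources used here. In the authors' deposited table of the first set, which lists all 32 members, 3 members had an adjusted p under 0.05 and were higher in SN_input over Input (1.38% of all genes called). That column names no treatment and is on another scale than the values above: Slc1a2 stands at 5.86 in the authors' deposited table, against fitted differences of 2.80 in control and 3.11 in tamoxifen mice, so its sizes are not compared. Lower values with an adjusted p under 0.05 were held in the authors' deposited table by 2 members in MG_TRAP over Input (median -2.15, 9.4% of all genes called) and by 14 members in PeMP_TRAP over SN_input (median -2.53, 17.9%). The shares of all genes called in that table are not split by direction here.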

How the data were processed

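RNA was counted in 44 libraries, 4 fractions of 3 control and 8 tamoxifen letters. The deposited values are whole-number counts of reads per gene in each library; Trimmomatic 0.38, Bowtie2 2.3.5, STAR 2.7.0d, FastQC 0.11.7, HTSeq 0.9.1 and edgeR are listed in the submitters' processing notes, without roles, and strand, build and annotation are not given in the sources used here. The authors' deposited tables of the first set also hold log2 CPM, log2 fold changes, a score from a likelihood ratio test, p-values and FDR, per the file headers; they were used only where named.

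Lines that name no gene were left out, and the 50714 identifiers shared by both sets were kept, which left out 0.0232% to 0.795% of a library's assigned reads. Each comparison was fitted across all genes with edgeR 4.0.16 in R 4.3.3 (limma 3.58.1): TMM scaling, a minimum count of 10 in its default filter, the quasi-likelihood test and Benjamini-Hochberg adjustment at 0.05 over all genes tested. Comparisons within tamoxifen used its 32 libraries with terms for fraction and set, those within control or between treatments the 24 first-set libraries, so several comparisons share libraries. DESeq2 1.42.0, RLE factors, total counts, no filter, the compared groups alone, each set alone, a replicate block and leaving out each letter were alternatives. The scripts were tested on simulated counts. No pair of libraries held identical values.

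The members, the marker lists and the named genes were chosen with earlier results of these data known. The naming rule was: all members may be named; in each comparison the perisynaptic genes and the called members with the 3 highest and 3 lowest fold changes get their library values, as does any member called against the direction of most called members; of the other astrocyte genes, the 2 highest and 2 lowest called are named; Cx3cr1, P2ry12, Tmem119 and Rpl10a check the immunoprecipitation; and the genes most alike each perisynaptic gene are the 3 with the highest Pearson correlation over 8 group means, at an average log2 CPM of at least 4. One result under this rule is not reported here. Standard errors were taken from the fold change and its F statistic. Assigned reads of 746616 to 35584637 set the precision, and 3 counts were used as the floor of a library. The floor covers counting error only, whereas the standard errors include the spread between libraries.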

Additional observations from a re-analysis of the deposited data

Results flagged for a closer look

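Of 128 groups of 8 tamoxifen libraries, 26 held 1 library far from the others (log2 CPM); the limit used is one that chance passes in about 1 in 20 groups of normally distributed values, which log2 values with counts of 0 and both sets are not. Most often this was letter D: Slc1a3 at 11.05, Mlc1 at 9.54, Clu at 12.12, Cldn10 at 3.32, Slc6a11 at 4.72, Dio2 at 4.04 and F3 at -2.80 in SN_input, Gjb6 and Hepacam at -2.80, Mlc1 at -1.81 and F3 at -2.22 in MG_TRAP, and Glul at 6.39 and Mt3 at 6.69 in Input. Among tamoxifen PeMP_TRAP libraries D also held the only Slc7a10 reads (-0.29). Letter J stood apart in PeMP_TRAP for Slc1a3 and Ndrg2 (-2.80 each) and Sparcl1 (2.25), and in MG_TRAP for Acsbg1 (-2.80). Letter F was low for Ttyh1 in Input (6.89), MG_TRAP (3.59) and SN_input (9.10) and for Aldh1l1 in Input (1.70). Letter E was low in Input for Slc7a10 (-0.12) and Slc6a11 (3.27), high in SN_input for Slc4a4 (8.05) and high in PeMP_TRAP for F3 (1.62).

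The comparison PeMP_TRAP over MG_TRAP differed between sets in edgeR's interaction test for Slc1a2 (-2.37, adjusted p = 0.0228), Slc7a10 (-5.68, adjusted p = 0.0445) and F3 (-7.88, adjusted p = 0.00801), second minus first set on the log2 scale. For PeMP_TRAP over SN_input it differed for F3 (-7.14, adjusted p = 0.0131 in edgeR). With 0 reads of Slc7a10 and F3 in all 5 second-set PeMP_TRAP libraries, and at most 3 of Slc7a10 in the first set, their fitted values give no size of a difference.

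From Input to MG_TRAP every control letter rose and every tamoxifen letter fell for 6 members, and this difference was not tested. The mean log2 differences in control and tamoxifen letters were 1.87 and -1.67 for Aldoc, 0.81 and -1.33 for Ntsr2, 2.38 and -2.79 for Acsbg1 (-1.96 without J), 1.18 and -1.96 for Clu, 0.80 and -1.84 for Ndrg2, and 1.29 and -1.86 for F3 (-1.12 without D). Without control letter C the control mean was 0.24 for Ndrg2 and 0.47 for Ntsr2.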

How the results depend on the processing

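Counts are members called by edgeR unless DESeq2 is named, the percentage after a count is the share of all genes called in that direction, and the cause of each change was not tested. SN_input over Input in tamoxifen mice (9 higher) gave 2 with RLE factors (0.853%), with total counts (0.592%) and with DESeq2 (1.47%), 30 with the compared groups alone (11.7%), 0 in the first set (0.0463%), 5 in the second (3.46%), 31 with the second-set compared groups alone (24.7%) and 4 to 10 leaving out 1 letter (1.19% to 2.72%, with 4 without E and 5 without G). MG_TRAP over Input (4 lower, 0 higher) gave 7 lower with RLE factors (3.36%) or no filter (5.06%), 11 with DESeq2 (5.68%), 15 lower (9.18%) and 1 higher (14.1%) with the compared groups alone, and 0 lower in the first set (0.0308%). It gave 7 lower (3.29%) and 1 higher (5.9%) without J and K of PeMP_TRAP, 13 lower (9.83%) and 1 higher (14.3%) with the second-set compared groups alone, and, leaving out 1 letter, 2 to 4 lower (1.43% to 2.49%, with 2 without F, G, H, I or K) and 0 to 1 higher (3.73% to 4.71%, with 1 without D). PeMP_TRAP over SN_input (20 lower) gave 11 with the compared groups alone (15.4%), 3 in the first set (0.47%), 8 with the second-set compared groups alone (22.2%) and 17 to 22 leaving out 1 letter (22.5% to 31.4%). PeMP_TRAP over MG_TRAP (7 higher, 3 lower) gave 3 higher with RLE factors (1.83%) or DESeq2 (2.81%), 1 with total counts (1.24%), 2 with the compared groups alone (1.08%), and 0 higher and 0 lower in the first set, where no gene was called. It gave 4 higher in the second set (4.42%), 1 higher (1.67%) and 1 lower (13%) with the second-set compared groups alone, and 2 to 7 higher leaving out 1 letter (2.16% to 3.8%, with 2 without E, 3 without H or I and 4 without G). The difference of enrichments (3 lower) gave 1 with no filter (5.56%), 5 with DESeq2 (13.8%), 0 in the first set, where no gene was called, 5 in the second (28.9%) and 1 to 4 leaving out 1 letter (6.41% to 15.6%, with 1 without G, H, I or K). In control mice DESeq2 called 3 lower in PeMP_TRAP over SN_input (5.63%) and 2 higher in SN_input over Input (0.711%). Tamoxifen over control in MG_TRAP gave 1 lower with no filter (0.0359%) and 9 with DESeq2 (2.73%). In PeMP_TRAP (6 lower, 0 higher) it gave 11 lower (14.8%) and 1 higher (13.1%) with DESeq2, 0 lower with the compared groups alone (0.0921%, 26 members tested), and, leaving out 1 letter, 0 to 9 lower (0.588% to 4.01%, with 0 without F and 2 without C or D) and 0 to 1 higher (1.7% to 5.33%, with 1 without D). The fits without J and K and those on second-set compared groups alone were chosen after seeing the data.

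With the letter as a replicate block, the counts were 10 higher for SN_input over Input (2.22%), 1 higher (4.34%) and 5 lower (3.37%) for MG_TRAP over Input, 25 lower for PeMP_TRAP over SN_input (29.8%), 5 higher (2.27%) and 2 lower (20.2%) for PeMP_TRAP over MG_TRAP, 2 lower for the difference of enrichments (5.26%) and 1 higher for control SN_input over Input (0.0948%). The member called higher in MG_TRAP under the block was Glul. Whether letters pair libraries was checked over 66 pairs, of which 25 had a correlation of deviations above 0.1 (-0.204 to 0.501). Of 132 library and fraction combinations, 76 matched best with their own letter. No level without pairing was set beside these counts, so the check does not settle whether letters pair libraries.

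Among the perisynaptic genes, the sign reversed for Glul in PeMP_TRAP over SN_input (0.26 in the first set). In PeMP_TRAP over MG_TRAP it reversed for Slc1a3 (-0.06 with RLE factors and DESeq2, -0.32 with total counts, -0.04 in the second set, -0.22 with its compared groups alone), Glul (-0.08 with total counts) and Aqp4 (-0.26 with total counts, -0.24 in the second set, -0.46 with its compared groups alone, and -0.43 to 1.15 leaving out 1 letter, the lowest without G). The reversals of F3, Sox9 and Acsbg1 in SN_input over Input with other scalings are given above. The perisynaptic minus other score from Input to MG_TRAP was 1.68 as a median over genes and 0.43 without Glul. From Input to SN_input it was 0.33 without Slc1a2 and 0.80 without Aqp4.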
